A study of Mus musculus with 10 samples.

Results

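Colorectum sampled on day 2 of treatment with dextran sodium sulfate (DSS), in mice also injected with a control miRNA, was compared with that of normal mice. Genes induced by interferon were higher in the treated mice, genes of the circadian clock moved in both directions, and most other features did not pass the test. The comparison used 2 libraries of the treated group (NC-miR day 2) and 2 libraries of normal mice. Its members were the features that lay above the detection floor of the deposited values in both libraries of either group, which were 12789 of 23284 features.

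All mice were BALB/c and 7 weeks old, and no transgene or deletion was described. The normal mice were untreated and sampled on day 0. The treated mice received 2% DSS, a sulfated polysaccharide that injures the colonic epithelium, and tail vein injections of a negative control miRNA (NC-miR) packed in sCA, a carbonate apatite carrier. The labels give injections on days 1 to 3 for this group and tissue collection on day 2, while the series text gives collection on the 4th day, so the number of injections received before sampling is not settled by the labels. Normal mice had neither DSS nor carrier nor injections, and the hour of collection is not stated, so these cannot be told apart. RNA was prepared as stranded mRNA libraries from whole colorectum, and the labels do not say whether the libraries of a group came from separate mice. If they did not, the p-values below measure a spread that may be technical. The epithelial genes Epcam, Krt8, Krt20 and Cdx2 lay above the floor in all 4 libraries, as the labelled tissue requires.

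The deposited values are log2 ratios of each gene to its own baseline. They allow differences between libraries but no levels of a gene, so genes are not ranked by abundance here. Each value below is a log2 distance from the mean of the 2 normal libraries, where 1 is a doubling. Errors are limma standard errors from 2 libraries per group. A gene is said to have risen or fallen only where the limma p, adjusted over all 13051 features tested, was under 0.05. Where one group lay wholly at the floor, only a minimum of the change is known, and "at least" stands before it. The floor leaves such a group almost no spread of its own, so these standard errors may be too small.

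Interferons are secreted proteins, and cells release those of type I and type III on sensing foreign nucleic acid. Type I and type III interferons act through a complex that holds STAT2 and IRF9 and binds a promoter element called the ISRE, and interferon gamma acts through another STAT complex. Their target genes include RNA-binding antiviral proteins, ubiquitin-like ISG15 and its enzymes, membrane-attacking GTPases and the machinery that presents peptides on MHC class I. The circadian clock is a feedback loop in which BMAL1 (gene Arntl) and CLOCK or NPAS2 activate genes with an E-box, among them their own repressors of the PER, CRY and REV-ERB families. Colonic epithelium and its stroma both carry this clock.

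Of the 12789 members, 12270 lay above the floor in both libraries of both groups, 257 in both treated libraries but not in both normal libraries, and 262 the other way round. limma called 159 features (1.22% of those tested), 139 higher (1.07%) and 20 lower (0.153%). All 159 calls fell on members. The rises had a median of 1.78 and ran from 0.72 to 5.82, with 60 of 139 above 2. The falls had a median of -1.09 and ran from -8.88 to -0.69, with 3 of 20 below -2. Across all members the median difference was -0.06. In 2 treated and 2 normal libraries of whole tissue, fewer cells of a type and less RNA per cell cannot be told apart, and this holds for each result below.

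The 2 groups were also compared in pairs of libraries that share none. In such pairs, 157 members were higher by more than 1 in both (replicate 1 against 1 and 2 against 2), 48 were lower by more than 1 in both, and 18 were beyond 1 in opposite directions. With the pairs exchanged the numbers were 166, 42 and 7. The treated libraries differed from each other by more than 1 at 294 members and the normal libraries at 166, with the same typical distance (median 0.18 in both groups).

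**Figure D1:**
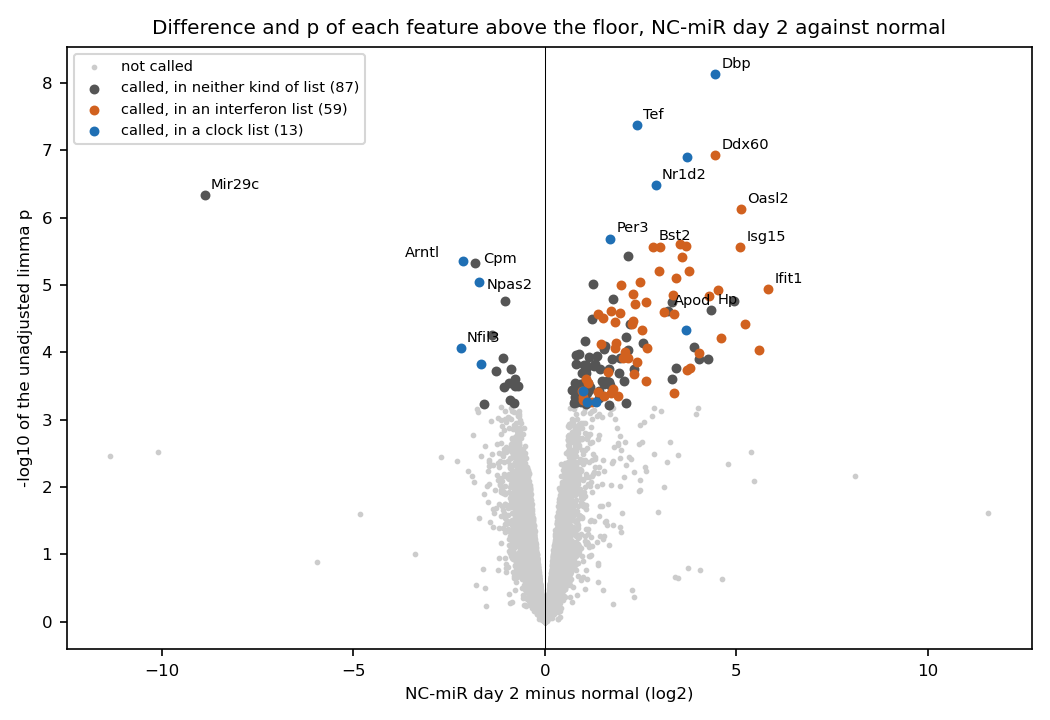
Each point is 1 of the 12789 members, with the log2 difference between NC-miR day 2 and normal (2 libraries each) on the x axis and the negative log10 of the unadjusted limma p on the y axis. Called features are coloured by list: 59 interferon genes, all on the right, 13 clock genes on both sides, and 87 others, with Mir29c far to the left at -8.88.

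Lists of genes grouped by role were used to order the calls. The 49 lists name 929 genes, of which 920 were found in the files, and 84 of the 159 called features belonged to at least 1 list. Called members of the interferon lists numbered 59, and all were higher. Called members of the clock lists numbered 13, of which 9 were higher and 4 lower. In 28 lists no member was called.

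Promoters of 4 interferon genes are shown because the letters of the ISRE recur in them. The element was searched as GAAA, any 2 bases and GAAA again on both strands of the 300 bases from 250 before to 50 after each start site in the RefSeq table (build GRCm38.p6), with overlapping matches counted. The capitals mark the matches, and each stretch reads 5′ to 3′ on the strand of the gene.
Isg15, chr4:156200819-156200938, minus strand: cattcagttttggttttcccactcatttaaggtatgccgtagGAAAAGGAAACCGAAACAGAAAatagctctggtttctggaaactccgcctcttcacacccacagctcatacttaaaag
Ifit1, chr19:34640751-34640870, plus strand: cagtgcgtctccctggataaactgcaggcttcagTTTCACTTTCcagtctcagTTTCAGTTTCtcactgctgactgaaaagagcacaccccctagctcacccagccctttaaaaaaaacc
Bst2, chr8:71537503-71537622, minus strand: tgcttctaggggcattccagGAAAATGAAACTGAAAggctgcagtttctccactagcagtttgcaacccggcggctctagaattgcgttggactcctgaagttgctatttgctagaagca
Gbp3, chr3:142559896-142560015, plus strand: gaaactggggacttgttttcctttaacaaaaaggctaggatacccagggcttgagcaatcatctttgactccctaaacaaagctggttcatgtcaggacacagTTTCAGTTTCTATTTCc
Isg15 holds 3 matches that overlap, at -78, -72 and -66 from the start site of the table. Ifit1 holds 2 separate matches, at -104 and -85. Bst2 and Gbp3 hold 2 overlapping matches each, at -130 and -124 and at -45 and -39.

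A promoter was found for 10308 of the 13051 features tested and for 120 of the 159 called. A gene was counted once, by a match in any of its promoters in the table. The ISRE letters stood at 24 of 44 called interferon-list genes (54.5%) and at 20 of 71 interferon-list genes that were not called (28.2%). Of genes called higher in neither kind of list, 11 of 55 held them (20%). The share was 3.75% over the 10099 members with a promoter. Counted by single promoters, a unit unlike that of the genes, it was 3.44% of the 32851 in the table. The letters TTCNNNGAA, bound by STAT pairs and named GAS, stood at 8 of 44 called interferon-list genes (18.2%). Those not called held them at 17 of 71 (23.9%), against 8.34% of members. The pattern can overlap the ISRE. A match is a description of letters and not a measured binding site.

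Called higher were 4 of 15 STAT and IRF genes, with Stat2, Irf9 and Irf7 among them, while the list had a median of 0.06, with 8 members above 0 and 7 below. Stat2 lay 2.49 and 1.67 above the normal mean in NC-miR day 2 replicates 1 and 2, and at -0.12 and 0.12 in the normal libraries. The groups did not overlap, which also held for 49.1% of all features tested. The difference was 2.08 ± 0.30 (limma adjusted p = 0.0192). Irf9, its DNA-binding partner, stood at 2.70 and 1.90 (2.30 ± 0.25, adjusted p = 0.00646). Irf7, which amplifies type I interferon production, stood at 3.21 and 2.72 (2.97 ± 0.29, adjusted p = 0.00432). Irf4, a factor of lymphocytes and plasma cells, stood at -1.33 ± 0.48 and did not pass (adjusted p = 0.248).

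Sensors of nucleic acid rose at 4 of 15 members. Zbp1, which senses Z-form nucleic acid and can trigger necroptosis, lay 3.75 and 3.09 above the normal mean, and its normal libraries lay at 0.40 and -0.40 (3.42 ± 0.35, adjusted p = 0.00507). The RNA helicases of the RIG-I family all rose, with Dhx58 by 2.33 ± 0.37, Ddx58 (RIG-I) by 1.92 ± 0.34 and Ifih1 (MDA5) by 1.52 ± 0.19. The endosomal sensor Tlr3 differed by 1.14 ± 0.29 and the DNA-binding Ifi204 by 2.65 ± 0.72 without passing (adjusted p = 0.129 and 0.147). Ifi204 stood at 4.00 in replicate 1 and 1.30 in replicate 2. Mlkl, the pore-forming effector of necroptosis and outside the lists, rose by 1.30 ± 0.20 (adjusted p = 0.0233).

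No gene of an interferon or its receptors was called. Of 17 listed, 8 were members. In limma 0 of the 8 had an unadjusted p under 0.05, against 1988 of all 13051 features tested. Ifnb1 and Ifng lay at the floor in all 10 libraries of the series. The receptor genes Ifnar2 and Ifngr1 differed by 0.44 ± 0.20 and 0.33 ± 0.15 (adjusted p = 0.342 and 0.343).

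The largest called rises were those of antiviral effectors. Ifit1, which binds foreign RNA, lay 6.83 and 4.82 above the normal mean, against 0.45 and -0.45 in the normal libraries. Its lowest treated library was therefore far above its highest normal library. Of 11 IFIT and OAS genes, 8 rose (median 3.27, or 2.84 over the 9 above the floor in both groups). Oas2 and Oas3, which make the messenger of RNase L, were at the floor in the normal pair, and Oas2 was at least 13.7-fold higher (at least 3.78, adjusted p = 0.0248). Oas1a and Oas1g rose by 1.85 ± 0.25 and 1.83 ± 0.26. Ifit2 stood at 4.72 and 1.82 and did not pass (3.27 ± 0.75, adjusted p = 0.0935).

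The IFIT genes are close copies of each other that lie side by side. On chromosome 19, 5 called features (Ifit3, Gm14446, I830012O16Rik, 2010002M12Rik and Ifit1) fell between 34583119 and 34662981, with rises from 2.18 to 5.82. I830012O16Rik, also known as Ifit3b, rose by 4.94 ± 0.56. Reads shared between such copies, and between features whose annotations overlap, could have been assigned to either one, so the values of single copies are uncertain. Runs of 3 or more called features, each within 500 kb of the next, held 40 of the 158 called features with a known position, in 10 places. How often features in general lie that close was not counted. Besides the IFIT run, the places include Gbp genes on chromosome 3, Oas genes on 5, Trim30 genes on 7 and immunity-related GTPases on 11. They also include Apol genes on 15, in a run with Parp10 and Slc52a2, which fell, and the Parp9, Parp14 and Dtx3l neighbourhood on 16.

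Of 6 genes of ISG15 and its conjugation, 5 rose, and the median was 2.64. Isg15 itself (chromosome 4, 156199424 to 156200818) lay 5.59 and 4.61 above the normal mean, where the normal libraries lay at 0.18 and -0.18. The activating enzyme gene Uba7 rose by 1.22 ± 0.22, the conjugating enzyme gene Ube2l6 by 2.27 ± 0.29 and the ligase gene Herc6 by 3.01 ± 0.27. Usp18, which removes ISG15 and blocks the receptor, stood at 5.67 and 3.52 and was the only called member of 13 negative regulators of cytokine signalling. Socs1 (1.48 ± 0.44) and Tnfaip3 (0.96 ± 0.24), feedback inhibitors in that list, did not pass (adjusted p = 0.177 and 0.124). Trim25, the sixth gene of the ISG15 list, differed by 0.58 ± 0.21 (adjusted p = 0.256).

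Restriction factors and other interferon-induced genes rose at 15 of 28 members, and all 28 lay above 0. Bst2 (tetherin), which holds budding virus at the membrane, lay 3.02 and 2.60 above the normal mean and rose by 2.81 ± 0.25 (adjusted p = 0.00275). Ifitm3, which blocks fusion of virus with the cell, rose by 1.83 ± 0.23, and Xaf1, which promotes apoptosis, by 3.54 ± 0.31. H28, the symbol in the files for Ifi44l, rose by 4.29 ± 0.47. Adar, an RNA editing enzyme, rose by 1.66 ± 0.26 and Eif2ak2 (PKR), a kinase that halts translation, by 1.39 ± 0.24. Rsad2 (viperin) and Mx2 stood at 5.24 and 2.76 and at 5.35 and 2.54 in the treated libraries and fell short of the threshold (adjusted p = 0.0527 and 0.058). Mx2 lay at the floor in 1 of the 2 normal libraries.

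Interferon-inducible GTPases, which attack membranes around intracellular pathogens, rose at 8 of 17 members (median 2.45). Iigp1 lay 5.07 and 2.96 above the normal mean, and the normal libraries at 0.01 and -0.01 (4.01 ± 0.58, adjusted p = 0.0198). Gbp6 stood at 4.47 and 2.27 and Gbp3 at 3.96 and 2.73. Irgm1 and Irgm2 rose by 2.18 ± 0.32 and 2.65 ± 0.37. Gbp5 stood at 4.16 and 1.93 and did not pass (adjusted p = 0.0554).

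MHC class I presentation rose at 6 of 21 members, with smaller values (median 0.80), and all 21 lay above 0. B2m, the invariant light chain, lay 1.47 and 1.30 above the normal mean, with normal libraries at 0.01 and -0.01 (1.39 ± 0.17, adjusted p = 0.00848). The peptide transporter gene Tap1 rose by 1.71 ± 0.20, the immunoproteasome gene Psmb9 by 1.06 ± 0.17 and the peptide editor gene Tapbpl by 0.99 ± 0.18. The nonclassical class I genes H2-T24 and H2-T23 rose by 3.68 ± 0.33 and 1.47 ± 0.20. The classical H2-K1 (0.995 ± 0.19) and the immunoproteasome gene Psmb8 (1.17 ± 0.23) came close to the threshold (adjusted p = 0.0574 and 0.057). MHC class II genes lay on the other side, with 0 of 10 called, all 10 below 0 and a median of -0.39. H2-DMb2 and H2-Oa, found mainly in B cells and dendritic cells, stood lowest in p at -0.88 ± 0.25 and -0.84 ± 0.25 (adjusted p = 0.166 and 0.173).

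PARP and Schlafen genes rose at 6 of 12 members (median 1.90) and TRIM genes at 3 of 10 (median 1.07). Parp9, Parp14 and Dtx3l, which act as a complex on interferon targets, rose by 1.98 ± 0.21, 2.03 ± 0.30 and 1.55 ± 0.28. Slfn4, a gene of myeloid cells, rose by 2.65 ± 0.30. Trim30a, a ubiquitin ligase, stood at 4.00 and 2.76 (3.38 ± 0.41, adjusted p = 0.0085).

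Many called genes outside the lists are also known from interferon responses. The apolipoprotein L genes Apol6, Apol7a, Apol9a and Apol9b rose, the last 2 from the floor by at least 4.25 and at least 3.90. Gm12250, the gene of an immunity-related GTPase, rose by at least 4.03. Nmi, a partner of STAT proteins, rose by 1.12 ± 0.19, Ubd (FAT10), another ubiquitin-like modifier, by 0.84 ± 0.14 and Samd9l by 1.67 ± 0.26. Ly6e rose by 2.32 ± 0.36, Lgals9 (galectin-9) by 1.96 ± 0.29 and Siglec1, a macrophage sialic acid receptor that was at the floor in normal mice, by at least 1.04.

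Chemokine genes were mostly uncalled and spread between the treated libraries. Ccl8, which attracts monocytes, was the only called member of 23 (2.11 and 1.76, difference 1.94 ± 0.31, adjusted p = 0.027). Xcl1 (lymphotactin), a product of lymphocytes that attracts cross-presenting dendritic cells and a gene outside the list, stood at 2.67 and 1.75 and rose by 2.21 ± 0.28 (adjusted p = 0.0102). Cxcl10, a ligand of the receptor CXCR3 of activated T cells, was at the floor in the normal pair and 7.94 and 2.83 above it in the treated libraries. Its spread left it uncalled (at least 5.38 ± 1.30, adjusted p = 0.111). The same receptor's other ligands Cxcl9 (2.72 and 1.07) and Cxcl11 (3.48 and 0.54) were also at the floor in normal mice and uncalled. Ccl12, above the floor in both groups, stood at 5.08 and 1.89 (adjusted p = 0.114). Cxcl1, which attracts neutrophils, lay above the floor in 1 NC-miR day 2 library and in neither normal library.

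The rises of the called interferon-list genes differed in size between the 2 treated libraries. All 59 called interferon-list genes were higher in replicate 1 than in replicate 2, with medians of 2.89 and 2.06 above the normal mean and gaps from 0.12 to 2.93. Over the 13 called clock genes, 9 were higher in replicate 1 and the median gap was 0.18. Of the called rises in neither kind of list, 60 of 71 were higher in replicate 1, with a median gap of 0.31. Whether the replicates differed in dose, timing or injury is not stated.

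**Figure D2:**
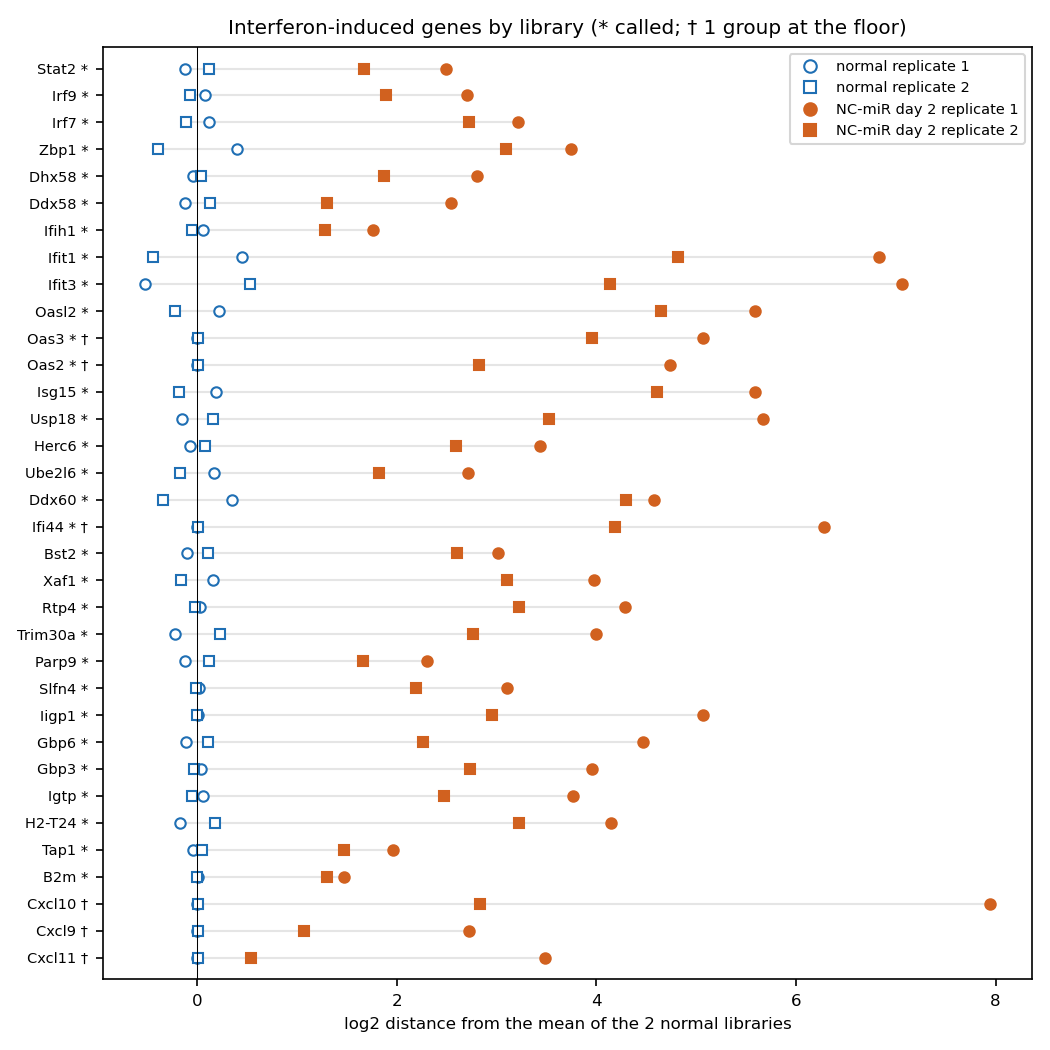
Log2 distance of each library from the mean of the 2 normal libraries (x axis) for 34 interferon-related genes (y axis), with open symbols for normal and filled symbols for NC-miR day 2, circles for replicate 1 and squares for replicate 2. The filled circle lies to the right of the filled square in each row, and the widest gap is that of Cxcl10 (7.94 against 2.83).

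These calls depended on single libraries. Of the 59 interferon calls, 7 passed when normal replicate 2 was left out and 14 when it was normal replicate 1. Leaving out treated replicate 1 kept 35 and treated replicate 2 kept 58, and 41 to 51 were kept without 1 of the 6 libraries of the other groups, which enter only the estimate of the spread. In a fit to the 4 libraries alone 9 remained. The 7 that passed in each fit with 1 library left out were Bst2, Ddx60, H2-T24, Herc6, Isg15, Oasl2 and Xaf1. No call could change direction in these fits, since the groups overlapped at none of the 159 calls.

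Sequences of 4 clock genes are shown because the elements through which the loop is known to act can be read in them. The letters searched in the same 300 bases were CACGTG (E-box, bound by CLOCK or NPAS2 with BMAL1), TTATGNAA (D-box, bound by DBP, TEF and HLF, and by their competitor NFIL3) and AA, any base and TAGGTCA (RORE, bound by REV-ERB and ROR proteins). The capitals mark the matches.
Gm129 (Ciart), E-box, chr3:95882258-95882377, minus strand: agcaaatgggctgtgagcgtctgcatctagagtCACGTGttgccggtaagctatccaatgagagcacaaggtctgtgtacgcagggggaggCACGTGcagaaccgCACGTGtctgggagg
Per3, D-box, chr4:151044766-151044885, minus strand: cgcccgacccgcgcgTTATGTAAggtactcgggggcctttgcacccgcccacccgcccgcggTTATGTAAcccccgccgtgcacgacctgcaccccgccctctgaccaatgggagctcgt
Tef, E-box, chr15:81802536-81802559, plus strand: gctgtggctcCACGTGctgcagct
Arntl, RORE, chr7:113207532-113207557, plus strand: ggcagaAAGTAGGTCAgggacggagg
Gm129 holds 3 E-boxes, at -116, -58 and -44 from the start site of the table, and Tef 1, at -127. Per3 holds 2 D-boxes, at -205 and -158. The RORE of Arntl starts at base 28 after the start site of the RefSeq entry used. Of 12 called clock genes with a promoter in the table, 4 held an E-box (33.3%, against 11.7% of members and 7.15% of promoters counted singly). A D-box stood in 2 (16.7%, against 2.56% and 3.38%) and the RORE in 1 (8.33%, against 0.188% and 0.219%).

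The 4 called falls of the clock lists were Arntl, Npas2, Nfil3 and Cry1. Arntl, the gene of BMAL1 (chromosome 7, 113178471 to 113314126) lay at -2.12 and -2.15 in the treated libraries and at -0.09 and 0.09 in the normal libraries. The groups did not overlap, as at 49.1% of all features tested, and the treated libraries differed from each other by less than the normal libraries did. Npas2, which can replace CLOCK as the partner of BMAL1, stood at -1.95 and -1.51 (-1.73 ± 0.18, adjusted p = 0.00543). Nfil3, which competes with DBP at the D-box, stood at -1.83 and -2.56 (-2.20 ± 0.31, adjusted p = 0.0178). The repressor gene Cry1 stood at -1.55 and -1.77 (-1.66 ± 0.25, adjusted p = 0.0233).

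The 9 called rises include transcription factors that act in the output of the clock. Dbp (chromosome 7, 45705100 to 45710203), an activator at the D-box, lay 4.58 and 4.30 above the normal mean against 0.06 and -0.06, and had the smallest p of all features (adjusted p = 9.71e-05). Its relative Tef stood at 2.41 and 2.40, with normal libraries at -0.01 and 0.01, while the third member of that family, Hlf, stood at 0.81 and 1.15 and did not pass (adjusted p = 0.0881). The REV-ERB genes Nr1d1 and Nr1d2, repressors of Arntl, stood at 4.05 and 3.33 and at 2.98 and 2.80. The normal libraries of Nr1d1 lay at 0.85 and -0.85, the widest normal spread among the called clock genes.

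The 3 period genes rose, with Per3 at 1.69 and 1.71 (1.70 ± 0.15, adjusted p = 0.00275), Per1 at 1.02 and 1.65 (1.34 ± 0.25, adjusted p = 0.0472) and Per2 at 1.05 and 1.15 (1.10 ± 0.20, adjusted p = 0.0471). Gm129, whose product CIART represses CLOCK and BMAL1, was at the floor in the normal pair and 3.94 and 3.47 above it in the treated libraries (at least 3.70 ± 0.22, adjusted p = 0.000415). A further CLOCK-interacting repressor, 2310044G17Rik (also called Cipc) and outside the lists, rose by 1.03 ± 0.18 (adjusted p = 0.0427). Nampt, which makes NAD and is an E-box target, rose by 1.00 ± 0.17 (adjusted p = 0.0378). Bhlhe40 (DEC1) stood at 1.14 and 1.04 but its normal libraries at 0.39 and -0.39, and it did not pass (adjusted p = 0.0868).

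One called feature overlaps Dbp and another lies further along chromosome 7. Sphk2, which makes sphingosine 1-phosphate, spans 45709463 to 45718002 on the opposite strand and overlaps the 3′ end of Dbp, and it rose by 0.98 ± 0.17 (adjusted p = 0.0388). Whether counting used strand is not given in the sources used here, so reads of the overlap cannot be told apart. The uncharacterised 0610005C13Rik (45567795 to 45575176) rose by 2.16 ± 0.20 (adjusted p = 0.00337) and stood at 2.17 and 2.16.

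**Figure D3:**
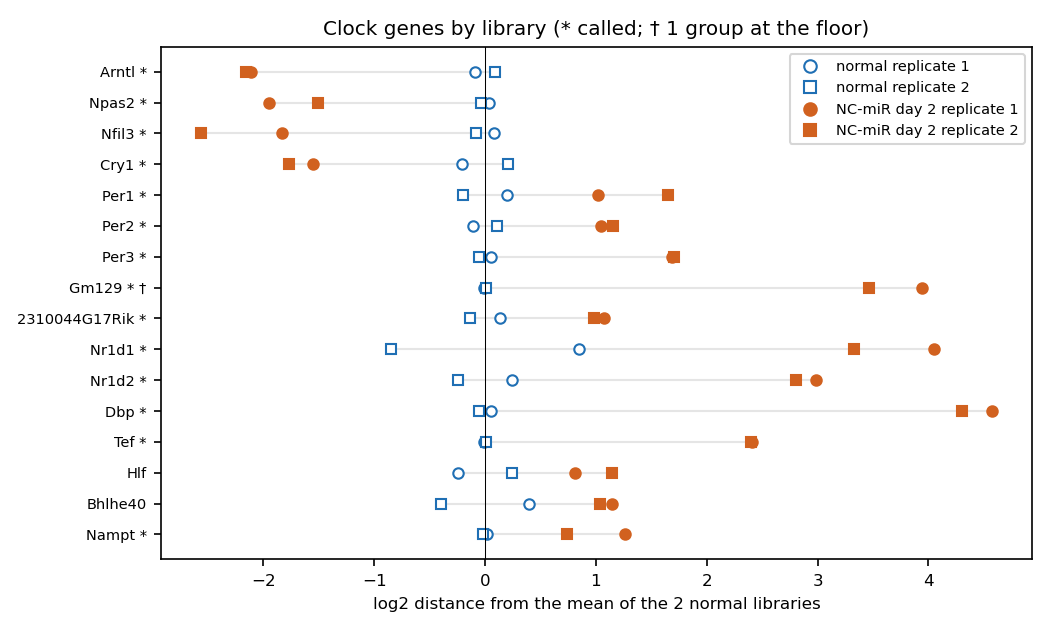
Log2 distance of each library from the mean of the 2 normal libraries (x axis) for 16 clock genes (y axis), symbols as in the plot of interferon-related genes. The 2 treated libraries lie close together in most rows, at -2.12 and -2.15 for Arntl and at 2.41 and 2.40 for Tef, and below 0 for Arntl, Npas2, Nfil3 and Cry1 and above 0 in the other rows.

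In all, 7 of 13 core clock genes were called (4 higher, 3 lower) and 6 of 12 output genes and nuclear receptors (5 higher, 1 lower). Of the 13 calls, 6 passed when normal replicate 2 was left out and 7 when it was normal replicate 1. Without treated replicate 1 or 2 the numbers were 9 and 10, without 1 library of another group 10 or 11, and in a fit to the 4 libraries alone 6. Those kept in each fit with 1 library left out were Dbp, Gm129, Nr1d2, Per3 and Tef. The hour of collection was not given for any group.

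Glucocorticoids are secreted in stress and with the time of day. Of 19 glucocorticoid response genes, 2 were called, both higher: Per1, named above, and Tat, a tyrosine aminotransferase (1.24 and 0.94, difference 1.09 ± 0.19, adjusted p = 0.039). The list had a median of 0.23. Fkbp5, a feedback target of the receptor, stood at 1.36 in replicate 1 and 0.30 in replicate 2 (adjusted p = 0.308), and the kinase gene Sgk1 at -0.89 and -0.35 (adjusted p = 0.234).

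Several genes of secreted plasma proteins were called higher, and 2 of 18 complement genes were. Hp (haptoglobin), which binds free haemoglobin, was at the floor in the normal pair and 5.10 and 3.59 above it in the treated libraries, at least 20.3-fold higher (at least 4.34 ± 0.51, adjusted p = 0.00833). Apod (apolipoprotein D), a lipid carrier of the lipocalin family, stood at 3.33 and 3.08 against -0.45 and 0.45 (3.20 ± 0.38, adjusted p = 0.00833). Cp (ceruloplasmin), which oxidises iron, stood at 1.68 and 1.13 (1.41 ± 0.25, adjusted p = 0.0433). The groups did not overlap in any of the 3, which also held for 49.1% of all features tested. The complement genes called were C4b and C2, whose products form a convertase, and they rose by 1.62 ± 0.27 and 1.68 ± 0.31 (adjusted p = 0.0328 and 0.0494), and the list median was 0.49. Cfb, of the alternative pathway, differed by 0.75 ± 0.14 (adjusted p = 0.0537). C4b and C2 lie in the MHC region of chromosome 17, in a run of 6 called genes between 34182030 and 34882100 with Psmb9, Tap1, Btnl1 and Btnl5.

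Genes more often read as a sign of colitis gave mixed values. Pla2g2a, a secreted phospholipase that kills Gram-positive bacteria, was the only called member of 21 antimicrobial and oxidant genes (2.73 and 1.50, difference 2.12 ± 0.39, adjusted p = 0.0474). Lcn2 (lipocalin-2) stood at 4.58 and 1.78 and S100a8 (a calprotectin subunit) at 4.93 and 1.30, both uncalled (adjusted p = 0.129 and 0.183). S100a9 (3.71 and 1.27) was uncalled too, and in all 3 genes replicate 1 stood far above replicate 2. Of 24 listed proinflammatory cytokine genes, 7 were members and 0 were called. Il1b stood at -0.01 and 0.55, Tnf lay above the floor in 1 library of each group, and Il6, Nos2 and Reg3b lay at the floor in all 10 libraries.

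Several called genes outside the lists encode transporters and brush border proteins. Slc10a2, the apical bile acid transporter, lay 1.47 and 1.68 above the normal mean, against 0.14 and -0.14 (1.58 ± 0.22, adjusted p = 0.0178). Slc36a1, a proton-coupled amino acid transporter, stood at 1.50 and 1.60 (1.55 ± 0.22, adjusted p = 0.0181). The serotonin transporter gene Slc6a4 rose by 0.99 ± 0.18 and the sugar phosphate exchanger gene Slc37a1 by 0.98 ± 0.15. Myo1a, a brush border myosin, and Anks4b, which links microvilli, rose by 0.78 ± 0.14 and 1.00 ± 0.18. Btnl1 and Btnl5, butyrophilin-like genes of the epithelium (Btnl5 is a pseudogene in RefSeq), rose by 1.19 ± 0.20 and 1.76 ± 0.26, and Btnl1 proteins are known to shape intraepithelial gamma delta T cells.

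Of 32 absorptive colonocyte genes, 1 rose and 2 fell, with a median of 0.22 and 20 members above 0. The falls were those of Cpm and Trpm6. Cpm, a membrane carboxypeptidase, stood at -1.80 and -1.84 against -0.14 and 0.14 (-1.82 ± 0.17, adjusted p = 0.00364). Trpm6, the magnesium channel gene, stood at -1.46 and -1.12 (-1.29 ± 0.20, adjusted p = 0.0263). The sodium-proton exchanger gene Slc9a3 was at the floor in the normal pair and 2.47 and 1.77 above it in the treated libraries (adjusted p = 0.133), and the water channel gene Aqp8 at 1.09 and 1.11 (adjusted p = 0.103). The chloride exchanger gene Slc26a3 (0.33 and 0.36) and the bicarbonate transporter gene Slc4a4 (-1.55 and -0.78) were uncalled (adjusted p = 0.395 and 0.126).

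Genes of lipid and sugar metabolism were called singly. Fa2h, which hydroxylates the fatty acids of sphingolipids, rose by 0.90 ± 0.13, the ceramidase gene Acer1 by 0.78 ± 0.14 and B4galt5, which makes lactosylceramide, by 0.82 ± 0.14. Idi1 was the only called member of 24 cholesterol synthesis genes (median 0.45, 19 above 0). Hk2 (hexokinase 2) rose by 1.06 ± 0.16 and was the only called member of 16 hypoxia response genes, all of which lay above 0 (median 0.30). Upp1, which splits uridine, rose by 1.69 ± 0.28. Lists of fatty acid oxidation, fatty acid synthesis, sterol efflux and detoxification genes had 0 calls each, with medians of -0.17, 0.15, 0.08 and 0.07.

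Arginine and polyamine genes were the only list, apart from the clock and absorptive lists, with a call among the falls. Arg2, mitochondrial arginase, stood at -1.57 and -1.58 against -0.16 and 0.16 (-1.58 ± 0.29, adjusted p = 0.0481). Adc (also called Azin2), an antizyme inhibitor, stood at -1.11 and -1.09 (-1.10 ± 0.16, adjusted p = 0.0208). Of 14 members, 12 lay below 0, with a median of -0.24. Other falls were Atg16l2 (-1.39 ± 0.18), a relative of the autophagy gene Atg16l1, the cell adhesion gene Ceacam2 (-0.92 ± 0.17), the small proteoglycan gene Epyc (-1.08 ± 0.18), the antisense RNA Dio3os (-1.03 ± 0.12) and the riboflavin transporter gene Slc52a2 (-0.79 ± 0.13). For Epyc and Dio3os 1 of the 2 treated libraries lay at the floor, so these falls may be larger.

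**Figure D4:**
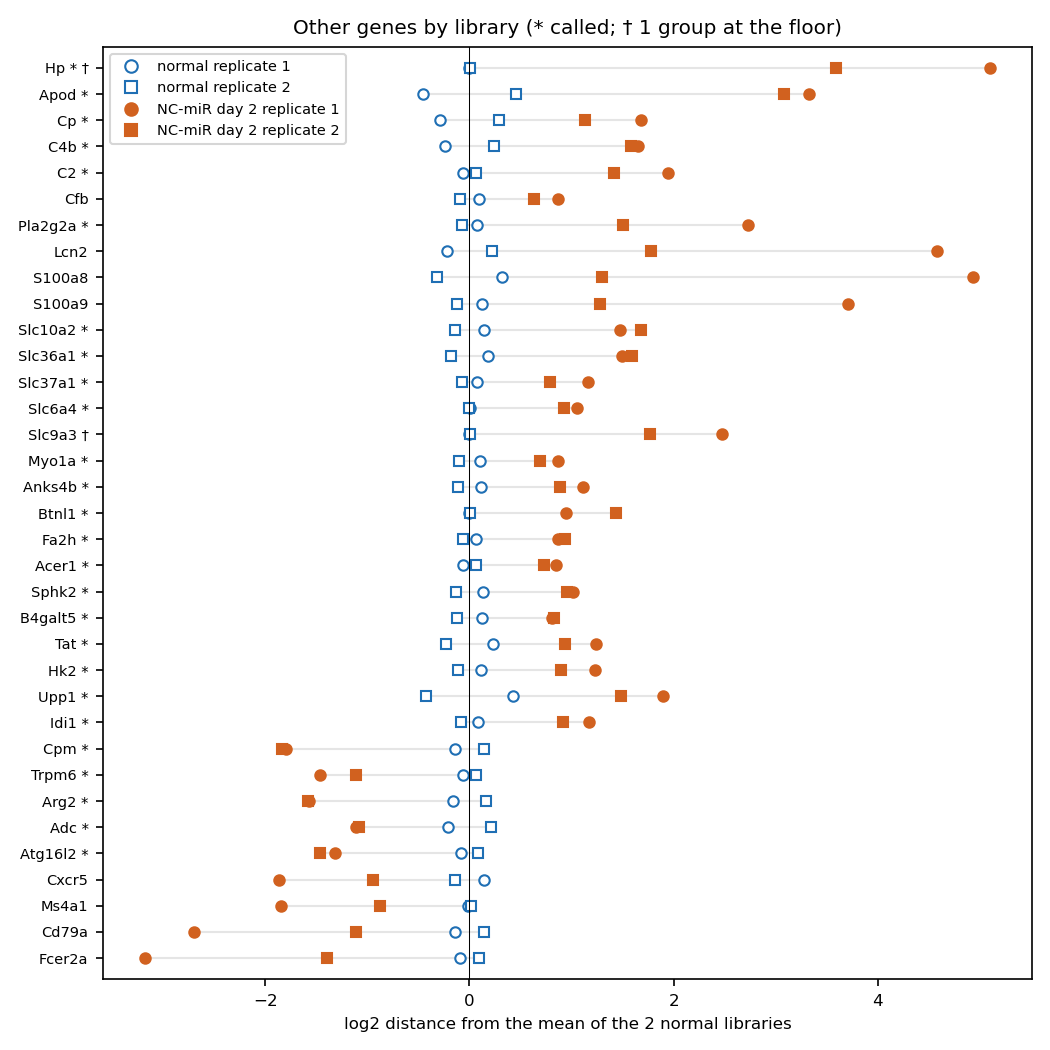
Log2 distance of each library from the mean of the 2 normal libraries (x axis) for 35 genes of circulating proteins, host defence, transport, metabolism and B cells (y axis), symbols as in the plot of interferon-related genes. Slc10a2 (1.47 and 1.68) and Slc36a1 (1.50 and 1.60) have both treated libraries close together, while Lcn2 and S100a8 lie at 4.58 and 4.93 in replicate 1 and at 1.78 and 1.30 in replicate 2.

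Of the 87 calls in neither an interferon nor a clock list, 3 passed when normal replicate 2 was left out (Apod, 0610005C13Rik and the precursor Mir29c, described next) and 8 when it was normal replicate 1. Without treated replicate 1 or 2 the numbers were 16 and 56, without 1 library of another group 37 to 61, and in a fit to the 4 libraries alone 6.

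Mir29c is of interest because other groups of the series received miR-29a or miR-29b, which share the 3p seed of miR-29c. Its mature products in the RefSeq table are shown with the seed, bases 2 to 8, in capitals.
mmu-miR-29c-3p: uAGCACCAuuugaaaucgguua
mmu-miR-29c-5p: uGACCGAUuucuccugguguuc
The feature in the files is the precursor (chromosome 1, 195037547 to 195037634, plus strand), measured in libraries of polyadenylated RNA and not as mature miRNA. It was at the floor in the treated pair (-8.90 and -8.86) and at -0.71 and 0.71 in the normal libraries, at least 471-fold lower (at least -8.88 ± 0.63, adjusted p = 0.000999). The precursor lies inside a noncoding host gene and opposite Cd46, so its reads are uncertain. Mir29a, Mir29b-1 and Mir29b-2 lay at the floor in all 10 libraries.

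Features of small RNA had larger errors than most. The 13 miRNA precursors among the members had a median standard error of 0.84 and the 16 snoRNA and scaRNA features one of 2.12, against 0.18 over all members. Differences beyond 3 in either direction were found at 6 of 13, 7 of 16 and 57 of 12789. Mir29c was the only one of these called. Mir677 was at the floor in the normal pair and 11.40 and 11.74 above it in the treated libraries, uncalled (adjusted p = 0.248). Mir1892 and Mir3074-1 were at the floor in the treated pair and uncalled (at least -11.34 ± 2.80 and at least -10.10 ± 2.44, adjusted p = 0.117 and 0.111). These errors also hold the spread of the other groups. Mir677 stood at 12.04 and -0.01 in miR-29a day 4 and at 12.07 and -0.05 in NC-miR day 4. In the limma fit to the 4 libraries alone Mir677, Mir3074-1 and Mir1892 passed (adjusted p = 0.000105, 0.00301 and 0.033). The pair at the floor has almost no spread of its own, so these p may be too small.

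Markers of B cells had the lowest median of the 49 lists. All 21 members of the B and plasma cell list lay below 0. At 20 of them the unadjusted limma p was under 0.05, as at 1988 of all 13051 features tested, but 0 were called. Their medians were -1.87 in replicate 1 and -1.01 in replicate 2. The B cell receptor subunit gene Cd79a stood at -2.69 and -1.12, Ms4a1 (CD20) at -1.85 and -0.87 and Blk, a kinase of B cells, at -1.77 and -1.01 (adjusted p = 0.156, 0.134 and 0.112). Blk lay at the floor in 1 of the 2 treated libraries. Fcer2a (CD23) stood at -3.18 and -1.39 (adjusted p = 0.128). With 1 library left out, the median of the list ran from -1.87 to -1.01. Colorectal B cells sit largely in lymphoid follicles, and how much follicle each piece held is not stated. MHC class II genes, which B cells also express, had medians of -0.59 and -0.06 in replicates 1 and 2 and of -0.17 and 0.17 in the normal libraries. Replicate 2 thus lay between the normal libraries and at the median of all members (-0.06).

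T and NK cell markers had a median of -0.09 over 11 members of 28 listed, and monocyte and macrophage markers one of 0.19 over 19. The Fc receptor gene Fcgr1, also known to respond to interferon, stood at 3.17 and 1.24 (adjusted p = 0.119), and Ly6c1 at 1.47 and 1.07 (adjusted p = 0.055). Of 15 neutrophil markers 4 were members, and 10 found in the files were not above the floor in both libraries of either group. The 4 members had medians of 2.39 and 0.87 in replicates 1 and 2. The call in the dendritic cell list (1 of 9) was Bst2, which interferon also induces. The part of cell numbers in the results above was not tested.

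Lists of the other cells of the gut wall had 0 calls. Medians were 0.21 for 18 goblet cell genes, 0.04 for 16 enteroendocrine genes, -0.18 for 16 crypt stem cell and Wnt target genes and -0.13 for 30 cell cycle genes. Smooth muscle, fibroblast, endothelial and enteric neuron lists had medians between -0.14 and 0.17. Adipocyte genes had a median of 0.77 with 17 of 18 above 0, but Adipoq (adiponectin) stood at 1.71 and 1.29 where its normal libraries stood at -0.77 and 0.77, so the normal spread was of similar size. Unfolded protein response and cytosolic heat shock genes had medians of 0.07 and 0.05, with 0 of 20 and 0 of 15 called, and immediate early genes 0 of 14.

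**Figure D5:**
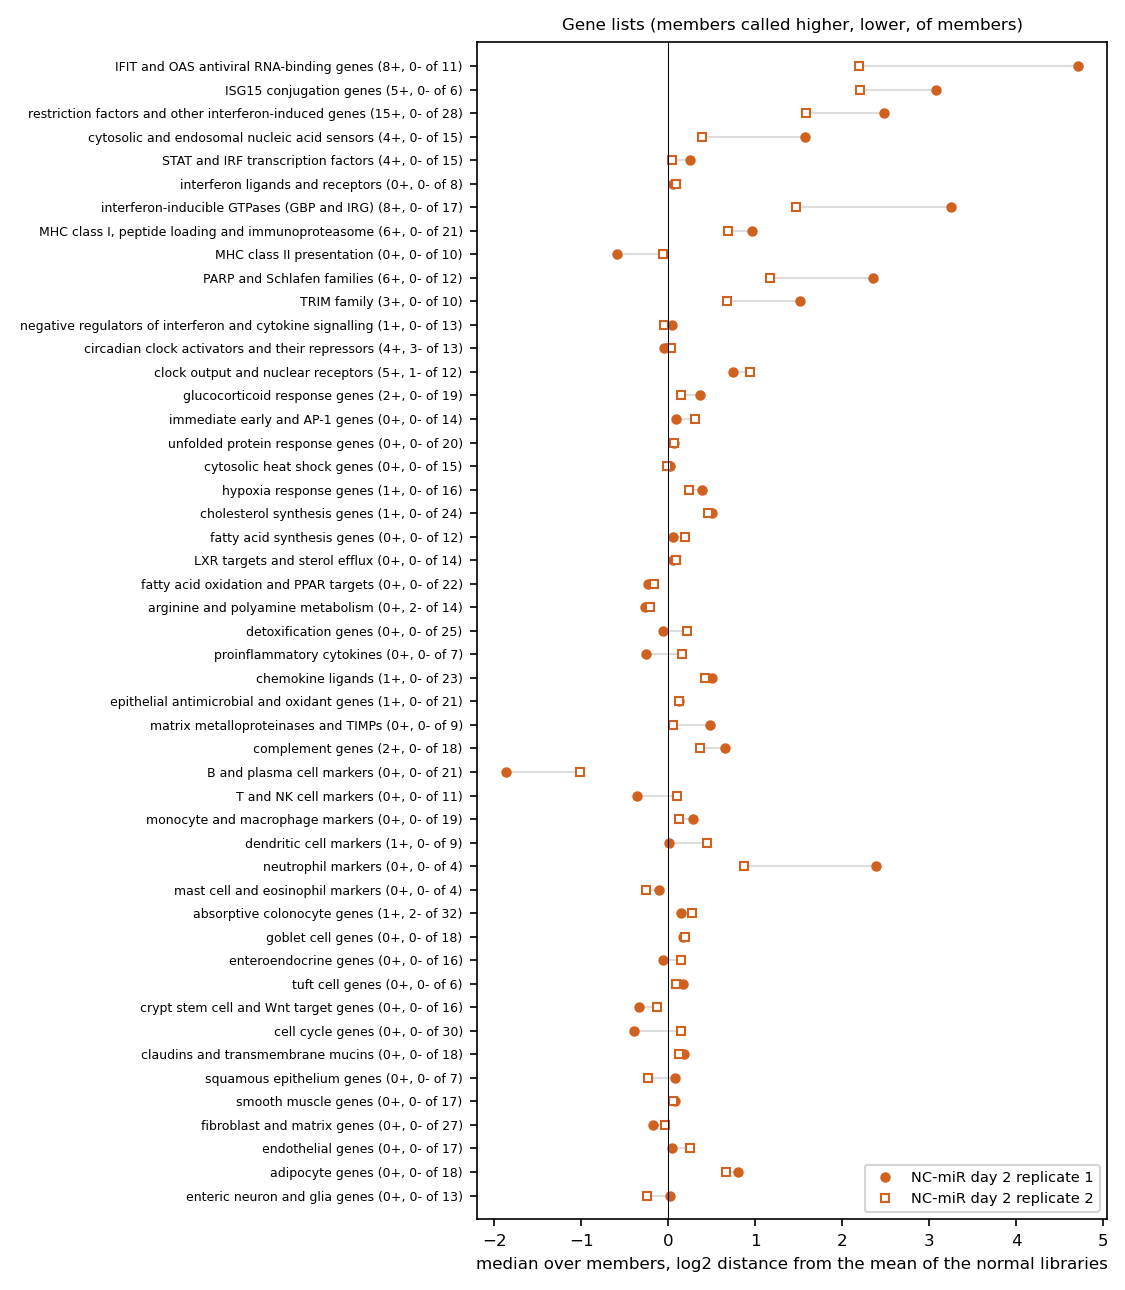
Median log2 distance from the mean of the 2 normal libraries (x axis) over the members of each of the 49 lists (y axis), for NC-miR day 2 replicate 1 (filled) and replicate 2 (open), with the numbers called higher and lower and the number of members in brackets. IFIT and OAS genes (4.72 and 2.19) and interferon-inducible GTPases (3.25 and 1.47) lie to the right with replicate 1 beyond replicate 2, interferon ligands and receptors near 0 (0.05 and 0.08), and B and plasma cell markers to the left (-1.87 and -1.01).

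The same carrier and control miRNA were given to mice sampled on day 4, which allows the 2 days to be compared without the normal mice. Between NC-miR day 4 and NC-miR day 2, limma called 2 of 13051 features (0.0153%), Mir29c (at least 8.52 ± 0.63 higher on day 4, adjusted p = 0.00834) and the small nucleolar RNA Snord16a (at least -9.80 ± 0.95, adjusted p = 0.0357). Snord16a, whose treated libraries of day 2 stood at -0.83 and 2.51, was at the floor in both day 4 libraries. Interferon genes were lower on day 4 in value but not in call, with Isg15 at -2.01 and Iigp1 at -2.25 (adjusted p = 0.483 for both) and a median of -1.69 over the GTPase list. Bst2 stood at -1.85 (adjusted p = 0.277), Hp at -2.04 (0.483) and Apod at -2.26 (0.344). Of the clock genes, Dbp stood at -0.23 (0.877), Nr1d1 at -0.02 (0.997) and Arntl at -0.06 (0.98). A p that misses the threshold does not show that the 2 days were alike.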

How the data were processed

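RNA sequencing of 10 colorectum libraries, 2 per group, was used. TopHat2 2.0.13, Bowtie2 2.2.3, SAMtools 0.1.19, Cuffnorm 2.2.1 and the build mm10 are named in the submitters' processing notes, with no settings. The values deposited by the authors stand under the name FPKM per the file headers, yet are log2 ratios to a gene baseline. Raised to the power of 2, distances from the floor were multiples of the step of a number printed to 6 digits at 99.5% of 6028 values in 9 libraries (tolerance 0.1 of a step, against 19.7% in base e and 21.8% in base 10). The design written from the labels planned limma on the log2 values, with log2(FPKM + 1) only if the files held linear FPKM. A feature was at the floor where 2 or more libraries shared its lowest value after the constant of each library was subtracted. Read counts are not given, so depth is unknown, and 12680 to 12940 features per library lay above the floor.

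limma 3.58.1 in R 4.3.3 fitted 5 group means to all 10 libraries (5 residual and 3.26 prior degrees of freedom, no trend, not robust), for features detected over the floor in each library of 1 or more groups, with 2-sided p adjusted by Benjamini-Hochberg over all 13051. The fit was also run on simulated data with known changes, independent normal noise and no floor. Such data cannot speak for features at the floor or for the dependence on single libraries. Lists have counts and medians and no test. Members, lists and motifs were chosen with earlier results of these data known. Genes named were the 25 largest rises and falls, up to 6 members of smallest p per list, and a fixed set. Other named genes were chosen after their values were seen. Coordinates, promoters and miRNA are from RefSeq, GRCm38.p6. Alternatives were other filters, scalings, libraries and a replicate block. Results on some genes are not reported here.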

Additional observations from a re-analysis of the deposited data

Results flagged for a closer look

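The precursor feature Mir29c differed between the days of the control miRNA. It was at least 8.52 higher on the log2 scale in NC-miR day 4 than in NC-miR day 2 (limma adjusted p = 0.00834), since both day 2 libraries lay at the floor and both day 4 libraries above it, at -1.35 and 0.63 from the normal mean. Snord16a, a small nucleolar RNA, moved the other way by at least -9.80 (adjusted p = 0.0357): the 2 day 4 libraries lay at the floor, at -8.94 and -8.98 from the normal mean, and the day 2 libraries at -0.83 and 2.51.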

How the results depend on the processing

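The 159 calls (139 higher, 20 lower) held in number with features above the floor in all 4 libraries (160), adjustment over members alone (161), robust moderation (160), median centring (170), subtraction of the floor constants (171), quantile normalization (183) and the replicate block (138, with 124 higher and 14 lower, and 128 of the 159 calls kept). With no filter on the floor there were 28 (20 higher, 8 lower) and with only the 4 libraries compared 26 (19 higher, 7 lower). Leaving out 1 library gave 16 to 273 calls, 15 to 227 higher and 1 to 46 lower. The fewest came without normal replicate 2, which lost 143 calls, and the most without NC-miR day 2 replicate 2. In those 10 fits no call could change sign, since the groups overlapped at none of the 159 calls. The cause of the dependence on single libraries was not tested. Il1b, uncalled at 0.27, ran from -0.006136 without NC-miR day 2 replicate 2 to 0.5479 without NC-miR day 2 replicate 1. Snord16a, uncalled at 0.84, was -0.5372 with quantile normalization and ran from -0.8277 to 2.509 without those replicates. Like-numbered libraries of the 2 groups did not deviate together over the members as a whole (r = -0.04 over 12789 members). This correlation cannot show whether the numbers pair libraries at some genes or in the other groups. The block ended the calls of 31 features. The alternative pseudocount was not run, since the values are not linear. With 2 libraries per group and unknown depth, low genes are limited to those above the floor.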
